A study of Mus musculus with 4 samples.

Results

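The circadian clock genes described here are 10 transcripts of dermal white adipose tissue (dWAT), the fat layer that surrounds the lower ends of hair follicles. They were chosen by gene symbol, as a list of core clock and clock output genes, from the 22913 genes of the deposited expression tables. All 10 were found and had a value above 0 in each library. The tissue came from C57BL/6 mice with no transgene or drug named in the labels, and was separated from the skin by microdissection. The 4 groups were OTD (old mice, telogen, the resting phase of the hair follicle), YTD (young mice, telogen), OAD (old mice, anagen, the growth phase) and YAD (young mice, anagen). Old mice were 18 months and young mice 2 months of age by the protocol text and the study's methods, whereas the age field of the labels gives 18 months for YTD and 2 months for OAD. Groups were taken from the sample titles, which name each as old or young. Anagen was brought on by depilation, so both anagen groups were plucked and both telogen groups were not. The methods state that tissue of many mice per group was used, but 1 library per group was sequenced, so no spread between replicates is known and no difference below carries an error or a p-value.

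The clock is a feedback loop of transcription that runs once a day in nearly every cell, adipocytes included. Its positive limb is a pair of proteins, Arntl (also called Bmal1) bound to Clock or to the related Npas2, that sits on E-box sequences and switches on the negative limb. The negative limb comprises the Per and Cry genes, whose proteins block the pair, and Nr1d1 and Nr1d2 (REV-ERB alpha and beta), nuclear receptors that repress Arntl through ROR elements. Dbp, a transcription factor that binds D-box sequences, is a direct output of the pair. In mouse tissues Arntl and Npas2 peak at about the opposite time of day to Nr1d1 and Dbp, so the ratio of both limbs in a sample moves with the hour of harvest. The hour of harvest of these mice is not given in the sources used here, and with 1 library per group it cannot be told apart from age or hair cycle phase.

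The loop acts through short DNA elements, so the bases around the start sites of the members were searched for them, and 5 of the members carried a match. A match describes these letters and is not a binding site. RefSeq promoter windows on GRCm38.p6, from 250 bases before to 50 bases after a start, were matched by symbol for 9 of 10 members, with 13 windows. Per1 and Arntl had 2 windows each, and in each gene only 1 of them held a match. Motifs were searched on both strands. The E-box, bound by the Arntl pair, has the letters CACGTG and reads alike on either strand. Its weaker variant was written as CACGTT, which on the opposite strand appears as AACGTG. For the D-box the letters were TTATGTAA, or TTACATAA in the other orientation. For the core of the ROR element, shared by ROR and REV-ERB proteins, they were TAGGTCA, which in the other orientation is TGACCTA. None of these motifs contains another. The 4 windows with a match before the start are printed up to the base before the start, 5′ to 3′ on the gene's strand, and for Arntl 28 bases around its match after the start. Capitals mark the motif.
Per1 (chr11:69098699-69098948, plus strand): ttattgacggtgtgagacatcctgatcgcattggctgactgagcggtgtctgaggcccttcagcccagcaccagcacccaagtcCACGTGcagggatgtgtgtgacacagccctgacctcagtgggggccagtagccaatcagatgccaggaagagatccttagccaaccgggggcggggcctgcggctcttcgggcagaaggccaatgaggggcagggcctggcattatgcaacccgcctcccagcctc
Cry1 (chr10:85185055-85185304, minus strand): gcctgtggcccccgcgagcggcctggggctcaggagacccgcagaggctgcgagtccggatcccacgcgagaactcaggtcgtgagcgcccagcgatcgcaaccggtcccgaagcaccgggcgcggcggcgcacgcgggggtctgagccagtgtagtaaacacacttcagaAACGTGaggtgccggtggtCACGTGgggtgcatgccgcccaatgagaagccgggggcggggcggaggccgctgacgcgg
Nr1d1 (chr11:98775378-98775627, minus strand): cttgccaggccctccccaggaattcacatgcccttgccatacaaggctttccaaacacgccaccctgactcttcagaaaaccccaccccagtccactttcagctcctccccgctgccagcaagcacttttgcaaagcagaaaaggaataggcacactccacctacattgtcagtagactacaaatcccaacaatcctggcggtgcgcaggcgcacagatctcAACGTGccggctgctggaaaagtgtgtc
Per3 (chr4:151044666-151044915, minus strand): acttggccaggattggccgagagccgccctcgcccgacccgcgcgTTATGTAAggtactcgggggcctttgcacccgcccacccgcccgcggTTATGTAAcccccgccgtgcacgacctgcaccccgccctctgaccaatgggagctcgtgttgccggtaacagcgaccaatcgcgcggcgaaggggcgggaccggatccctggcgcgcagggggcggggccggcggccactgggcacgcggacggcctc
Arntl (chr7:113207531-113207558, plus strand): aggcagaaagTAGGTCAgggacggaggt

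Per1 held an E-box 166 bases before 1 of its 2 listed starts. The printed Per1 bases lie within a longer annotated Per1 transcript, in an intron except for 1 base. Cry1 held an E-box 60 bases and the E-box variant 79 bases before its start, and the last 10 printed bases are exon of another Cry1 transcript. Nr1d1 held the variant 28 bases before its start. Per3 carried the D-box, the element that Dbp itself recognises, 205 and 158 bases before its start. The Arntl match to the ROR core began at base 31 of the transcript, in its 5′ UTR. Among all 32851 RefSeq windows of the same length, 7.15% held the E-box, 4.68% the variant, 0.938% the D-box and 2.61% the ROR core. The share of windows with any of these motifs was not counted, so the number of members with a match has no direct counterpart. The windows of Clock, Npas2, Nr1d2 and Dbp held none of these letters.

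Values are FPKM, fragment counts corrected for feature length and library size, as the authors deposited them. Differences between libraries are differences of log2(FPKM + 1), a scale that compresses differences at low FPKM. Any gene whose difference reached 1 in either direction was called. The depth, read from the lowest FPKM values, was roughly 21000000 to 23000000 fragments per library, and 3 fragments were taken as the floor. FPKM is per length, so levels of different genes can be set side by side, but only roughly. The listed length is a coding length, and how fragments outside the coding part were counted is not given.

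The order of the clock genes by level differed between telogen and anagen, as the plot of levels shows, and was nearly the same at both ages. In telogen, Dbp, Nr1d1 and Nr1d2 led and Arntl was ninth of 10, with only Npas2 below it. In anagen, Per1 and Cry1 led, and Dbp, Nr1d1, Nr1d2 and Arntl lay within a narrow band, from 4.25 to 8.09 FPKM in YAD. Per2 (5.36) and Per3 (4.87) lay in that YAD band too. Arntl was at place 6 in OAD and at place 8 in YAD. With no replicates it cannot be said which neighbours in this order differ beyond their spread.

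**Figure D1:**
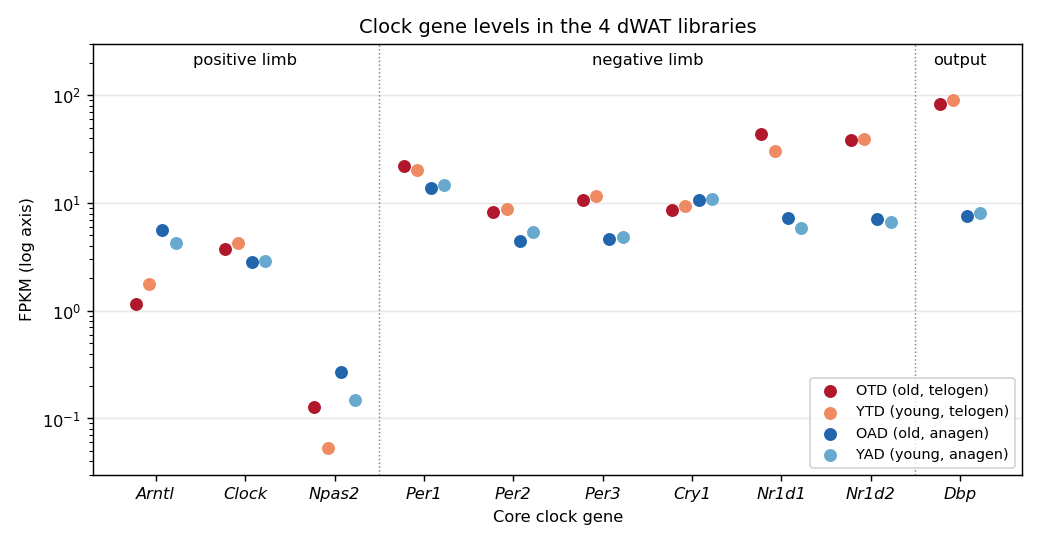
FPKM (log axis) of the 10 clock genes, 1 point per library and no error, since each group is 1 library. Dbp stood at 82.8 (OTD) and 90.2 (YTD) FPKM in telogen and at 7.62 (OAD) and 8.09 (YAD) in anagen, whereas Arntl was lower in both telogen libraries than in both anagen libraries.

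In the positive limb, Arntl was the member that differed most between libraries. Arntl (ENSMUSG00000055116, GRCm38 chromosome 7 from 113207465 to 113314122, plus strand) had an FPKM of 1.15 (OTD), 1.76 (YTD), 5.65 (OAD) and 4.25 (YAD). Both anagen libraries lay above both telogen libraries. Arntl was 4.92-fold higher in OAD than OTD (log2 difference 1.63, past the threshold) and 2.41-fold higher in YAD than YTD (0.93, short of it). The young difference passed the threshold under 5 of 6 alternatives of pseudocount and scaling, at 1.08 to 1.56, and stayed short at 0.93 when rescaled by the median of ratios. Relative to the shift of the median gene on a common sum it was 0.81. Between ages Arntl was 1.53-fold lower in OTD than YTD, on roughly 46.9 and 68.1 fragments, and 1.33-fold higher in OAD than YAD.

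Clock (ENSMUSG00000029238, chromosome 5 from 76212177 to 76304548, minus strand), the partner of Arntl, had an FPKM of 3.76 (OTD), 4.25 (YTD), 2.86 (OAD) and 2.89 (YAD). It moved little and opposite to Arntl, with log2 differences of -0.30 (OAD minus OTD) and -0.43 (YAD minus YTD). Rescaled to a common sum these turned to 0.17 and 0.23, or to -0.41 and -0.53 relative to the shift of the median gene. Clock exceeded Arntl 3.27-fold in OTD and 2.41-fold in YTD, but was 0.507 times Arntl in OAD and 0.681 times in YAD. Npas2 (ENSMUSG00000026077, chromosome 1 from 39193731 to 39363236, plus strand), which can stand in for Clock, was barely detected, at 0.128 (OTD), 0.0528 (YTD), 0.268 (OAD) and 0.148 (YAD) FPKM. These values correspond to roughly 6.78, 2.66, 15.2 and 8.04 fragments, so YTD was under the floor and no fold is given against it. In OAD Npas2 was 2.10-fold higher than in OTD, on these few fragments.

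In the negative limb, the 3 Per genes were each lower in both anagen libraries than in both telogen libraries, Per3 by the widest margin. Per1 (ENSMUSG00000020893, chromosome 11 from 69095217 to 69109960, plus strand), which is also induced by light and glucocorticoids, had an FPKM of 21.9 (OTD), 20.4 (YTD), 13.7 (OAD) and 14.7 (YAD). This is 1.60-fold lower in OAD than OTD and 1.38-fold lower in YAD than YTD. Per2 (ENSMUSG00000055866, chromosome 1 from 91415982 to 91459324, minus strand), a repressor that acts together with the Cry proteins, had an FPKM of 8.31 (OTD), 8.89 (YTD), 4.49 (OAD) and 5.36 (YAD). Neither gene reached the threshold, since Per1 differed by -0.64 and -0.44 and Per2 by -0.76 and -0.64 on the log2 scale in old and young mice. Rescaled to a common sum of FPKM, the young difference turned positive for both, at 0.36 for Per1 and 0.10 for Per2, but the median gene then shifted by 0.76, and relative to it they stood at -0.40 and -0.66. Per3 (ENSMUSG00000028957, chromosome 4 from 151003652 to 151044665, minus strand), a Per gene that binds the same partners, had an FPKM of 10.7 (OTD), 11.6 (YTD), 4.61 (OAD) and 4.87 (YAD). It was 2.33-fold lower in OAD than OTD and 2.38-fold lower in YAD than YTD, log2 differences of -1.07 and -1.10, just past the threshold. Rescaled to a common sum these were -0.53 and -0.36, short of it, or -1.11 and -1.12 relative to the shift of the median gene. The listed span of Per3 lies within that of Camta1 on the same strand, which had 3.87 (OTD), 7.24 (YTD), 9.21 (OAD) and 9.84 (YAD) FPKM.

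Cry1 (ENSMUSG00000020038, chromosome 10 from 85131702 to 85185054, minus strand), the repressor that is known to peak latest in the loop, was the negative limb member that was not lower in anagen. Its FPKM was 8.68 (OTD), 9.45 (YTD), 10.6 (OAD) and 10.8 (YAD). The log2 differences between phases, 0.26 in old and 0.18 in young mice, were far from the threshold.

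The REV-ERB genes stood out within the negative limb. Nr1d1 (ENSMUSG00000020889, chromosome 11 from 98767932 to 98775333, minus strand) had an FPKM of 43.9 (OTD), 30.7 (YTD), 7.33 (OAD) and 5.91 (YAD). Nr1d2 (ENSMUSG00000021775, chromosome 14 from 18204054 to 18239127, minus strand) had an FPKM of 38.6 (OTD), 39.5 (YTD), 7.06 (OAD) and 6.69 (YAD). Every telogen value exceeded every anagen value several-fold. Nr1d1 was 5.99-fold lower in OAD than OTD and 5.20-fold lower in YAD than YTD, log2 differences of -2.43 and -2.20. Nr1d2 was 5.47-fold and 5.90-fold lower, log2 differences of -2.30 and -2.40. The 3′ end of Nr1d1 overlaps that of Thra on the opposite strand by 1075 bases, and strand-specific counting is not stated, so reads of that stretch cannot be assigned. Thra itself ranged from 33.0 FPKM in OAD to 47.8 in YTD.

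The output gene Dbp (ENSMUSG00000059824, chromosome 7 from 45705088 to 45710155, plus strand) differed most of all the members. It had an FPKM of 82.8 (OTD), 90.2 (YTD), 7.62 (OAD) and 8.09 (YAD). Dbp was 10.9-fold lower in OAD than OTD and 11.1-fold lower in YAD than YTD, log2 differences of -3.28 and -3.33. The gene overlaps Sphk2 on the opposite strand by 689 bases, and Sphk2 ranged from 21.7 FPKM in YAD to 32.7 in YTD.

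Between ages no clock gene passed the threshold. In telogen 0 of 10 members were called, against 3.42% of 18152 genes, and in anagen 0 of 10 against 1.15%. Among genes of 1 FPKM or more, 0 of 9 members stood beside 4.78% in telogen and 1.59% in anagen. The median log2 difference of the members was -0.09 in telogen and -0.02 in anagen, beside medians of -0.01 and 0 for all genes. The widest age difference was that of Nr1d1 in telogen, 0.50, or 1.43-fold higher in OTD than YTD, and it was 0.27 in anagen. Next came Arntl, at -0.36 in telogen and 0.34 in anagen. The direction of the smaller telogen differences hung on the scaling, since the 6 negative limb members were all higher in OTD once mitochondrially encoded genes were left out and the rest rescaled. The other 8 members lay between -0.14 and 0.10 in telogen and between -0.21 and 0.14 in anagen.

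Between phases the picture of levels changed at both ages. Of the members, 5 of 10 were called in OAD against OTD (Arntl higher and Per3, Nr1d1, Nr1d2 and Dbp lower), where 30.9% of all genes were called. In YAD against YTD 4 of 10 were called (Per3, Nr1d1, Nr1d2 and Dbp, all lower), where 31.8% of all genes were. A large part of the transcriptome thus differed between phases, so the number of clock genes called has to be read against that background. Which members were called in young mice turned on the setting, since on a common sum the count was also 4 but held Arntl (1.56, higher) in place of Per3 (-0.36), and with mitochondrially encoded genes left out Per3 was at -0.96. By direction, as deposited, 4 of 10 members were called lower at each age, beside 15.2% of genes in old and 16.2% in young mice, and 1 of 10 and 0 of 10 were called higher, beside 15.7% and 15.6%. Among genes of 1 FPKM or more in a library compared, which leaves out Npas2, 5 of 9 members were called in old mice beside 40.5% of genes, and 4 of 9 in young mice beside 42%. As shares of the 9 members these were 55.6% in old and 44.4% in young mice. With so few members, neither count stood clear of that of all expressed genes. The members' median log2 difference was -0.70 in old and -0.54 in young mice, beside 0 for all genes in both. On a common sum it was -0.14 in old and 0.16 in young mice, beside 0.28 and 0.40 for all genes. Genes of 1 FPKM or more then had medians of 0.58 and 0.76.

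**Figure D2:**
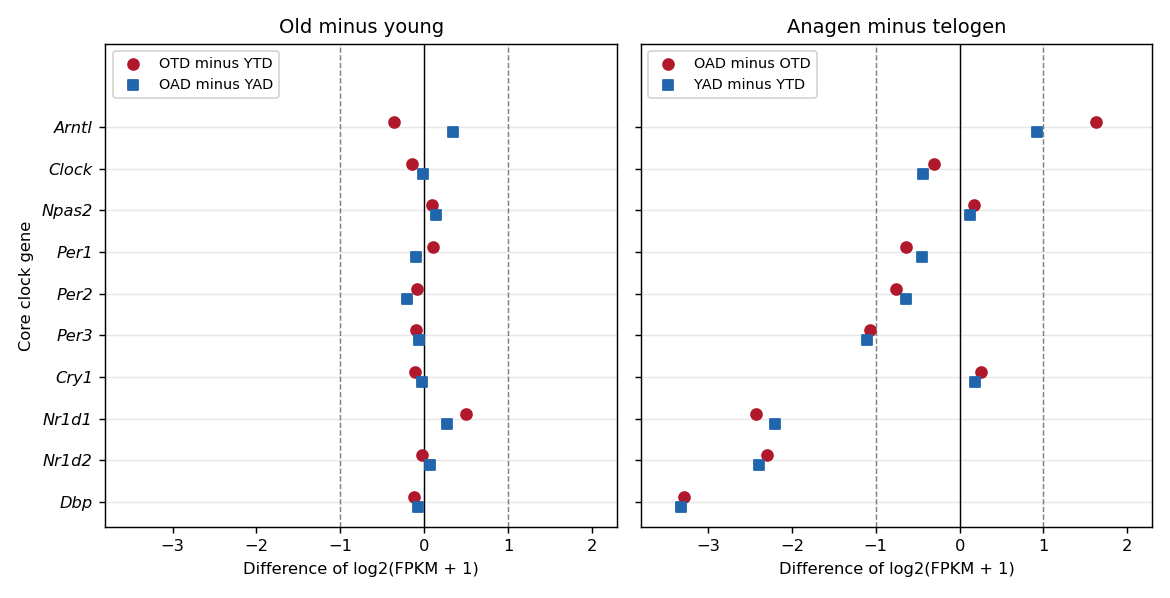
Differences of log2(FPKM + 1) for the 10 clock genes, old minus young on the left and anagen minus telogen on the right, with dashed lines at the threshold of 1 in size. On the left all points lie within the lines, the widest being Nr1d1 at 0.50, and on the right Dbp, Nr1d1, Nr1d2 and Per3 lie beyond the lower line at both ages and Arntl beyond the upper line in old mice (1.63).

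The size of the differences placed a few members far out among all genes. Only 45 of 18152 genes (0.248%) were lower in OAD than OTD by at least as much as Dbp, itself included, and 65 (0.358%) in YAD against YTD. For Nr1d1 these counts were 250 in old and 647 in young mice, and for Nr1d2 329 and 489. Per3, with 2552 and 2615 genes lower by as much or more, was well inside the distribution. Arntl was matched or exceeded by 1509 genes that were higher in OAD and by 3088 in YAD. These ranks describe single libraries and are not a test.

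**Figure D3:**
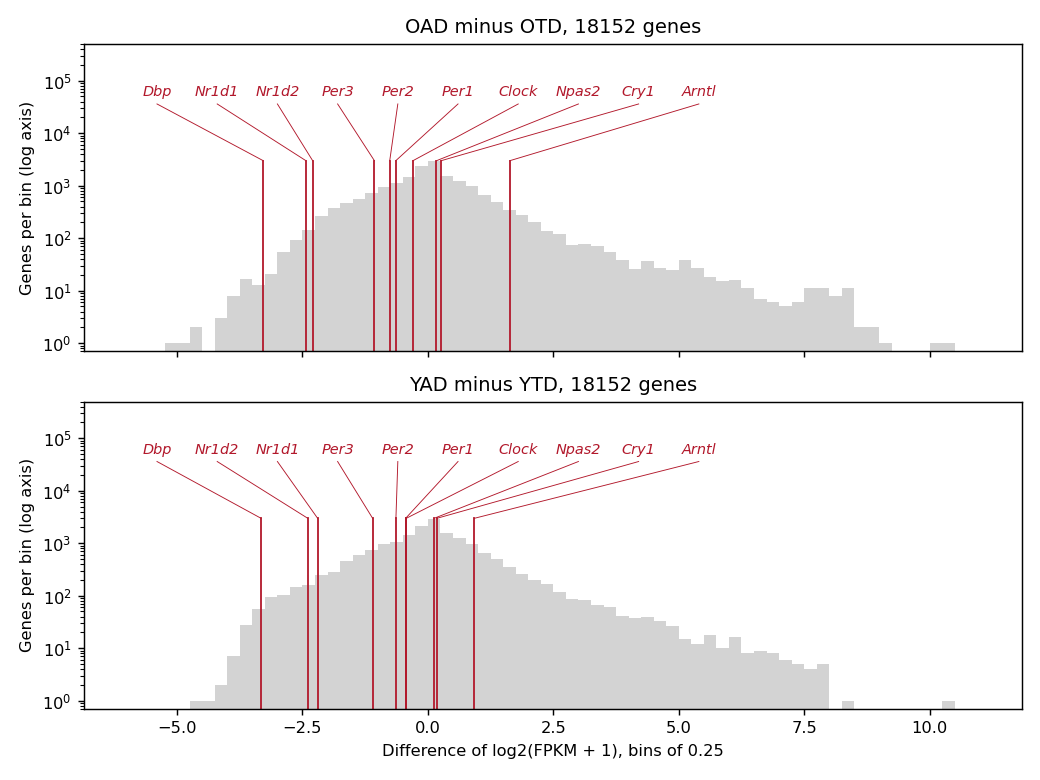
Histograms of the difference of log2(FPKM + 1) between anagen and telogen over all 18152 genes with a value above 0 (genes per bin on a log axis), in old mice (top) and young mice (bottom), with red lines at the clock genes. Dbp lies in the far lower tail of both (-3.28 and -3.33), and Clock, Cry1 and Npas2 lie near the centre.

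The balance of the limbs within a library does not depend on a scaling factor between libraries, apart from the pseudocount. The mean log2(FPKM + 1) of the positive limb (Arntl, Clock and Npas2) was 1.18 (OTD), 1.31 (YTD), 1.68 (OAD) and 1.52 (YAD). That of the negative limb (the other members except Dbp) was 4.23, 4.18, 3.07 and 3.08 in the same order. The negative limb thus exceeded the positive by 3.05 (OTD) and 2.87 (YTD), but by only 1.40 (OAD) and 1.56 (YAD). Between ages this difference shifted by 0.18 in telogen and by -0.17 in anagen, and between phases by -1.66 in old and -1.31 in young mice. The gap between phases was therefore several times that between ages, although no replicate spread is at hand for either.

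Plain ratios of FPKM, which use no pseudocount, also put both telogen libraries above both anagen libraries. The ratio of Dbp to Arntl was 72.1 (OTD), 51.3 (YTD), 1.35 (OAD) and 1.91 (YAD). It was 53.4-fold lower in OAD than OTD and 26.9-fold lower in YAD than YTD. Between ages the ratio was 1.41-fold higher in OTD than YTD and 1.41-fold lower in OAD than YAD. Nr1d1 exceeded Arntl 38.2-fold (OTD), 17.5-fold (YTD), 1.30-fold (OAD) and 1.39-fold (YAD). For Nr1d2 the ratios were 33.6, 22.4, 1.25 and 1.57, and for Per3 they were 9.35, 6.59, 0.816 and 1.15. Per1 and Cry1 stayed further above Arntl in anagen. The ratios of Per1 to Arntl were 19.1, 11.6, 2.43 and 3.46, those of Cry1 7.55, 5.37, 1.87 and 2.55, and those of Per2 7.23, 5.05, 0.795 and 1.26. Each of these ratios was higher in both telogen libraries than in both anagen libraries. They all share Arntl as denominator, so they are not separate signs of the balance. Arntl itself was 4.92-fold higher in OAD than OTD and 2.41-fold higher in YAD than YTD. The ratio of Cry1 to Arntl was lower in anagen although Cry1 was not. The ratio of Clock to Arntl, both of the positive limb, was lower too, at 3.27 (OTD), 2.41 (YTD), 0.507 (OAD) and 0.681 (YAD). Among these ratios the widest age gap was that of Nr1d1 to Arntl in telogen, 2.19-fold higher in OTD than YTD. The age gaps in telogen all rest on roughly 46.9 (OTD) and 68.1 (YTD) Arntl fragments.

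**Figure D4:**
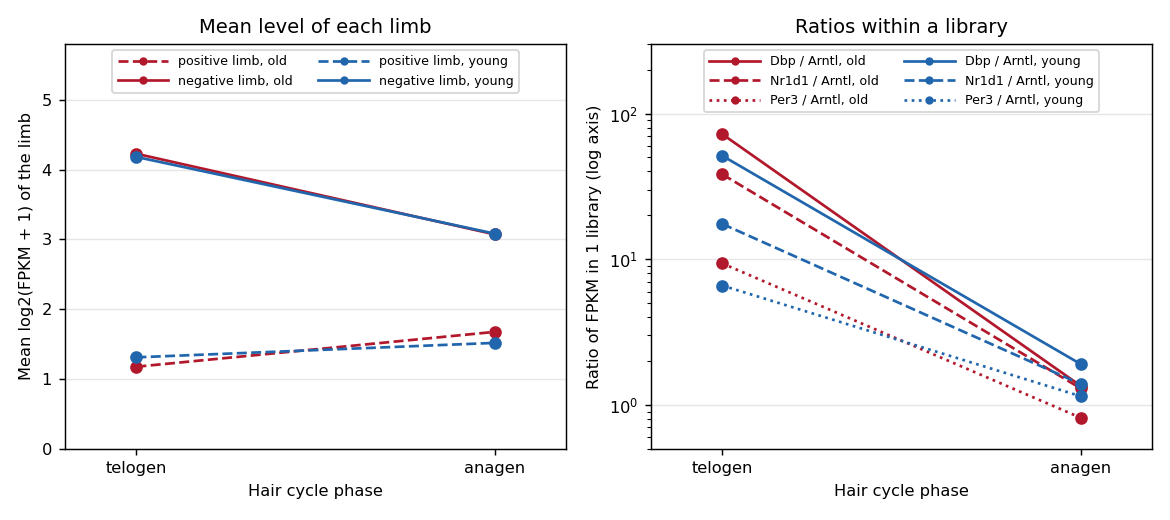
Left, mean log2(FPKM + 1) of the positive limb (dashed) and negative limb (solid) in each library. Right, ratios of FPKM within a library on a log axis (Dbp, Nr1d1 and Per3 over Arntl), which went from 72.1 (Dbp, OTD) and 51.3 (Dbp, YTD) in telogen to 1.35 (OAD) and 1.91 (YAD) in anagen, with lines joining libraries of 1 age and no error bars.

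Another 19 clock genes, listed by their known roles, were measured alongside. Between ages 0 of 19 were called in either phase. In OAD against OTD 7 were called lower and 2 higher, and in YAD against YTD 8 were called lower and 0 higher. Of all genes, 15.2% were called lower and 15.7% higher in old mice, and 16.2% and 15.6% in young mice. Their median log2 difference between phases was -0.74 in old and -0.58 in young mice, close to that of the 10 members. Rescaled to a common sum, fewer were called lower, 3 in old and 1 in young mice, and more were called higher, 3 and 3. Of all 18152 genes, 1502 were then called lower and 4923 higher in old mice, and 1274 and 5891 in young mice.

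The D-box factors split by their known direction of action. Tef and Hlf, activators related to Dbp, were lower in anagen, with Tef at 86.7 (OTD), 119.5 (YTD), 25.2 (OAD) and 26.8 (YAD) FPKM. Hlf was at 6.82, 4.98, 1.40 and 1.33 FPKM. Nfil3, which represses through the same D-box, went the other way, at 13.6 (OTD), 13.9 (YTD), 34.5 (OAD) and 25.6 (YAD) FPKM. The log2 differences of Tef were -1.74 in old and -2.12 in young mice, those of Hlf -1.70 and -1.36, and those of Nfil3 1.29 and 0.84, the last short of the threshold. On a common sum Hlf lost its call in young mice (-0.78), Nfil3 gained one (1.64), and Tef kept both (-1.14 and -1.29). On that scale the median gene of 1 FPKM or more shifted by 0.76 in young mice. The ratio of Dbp to Nfil3 was 6.11 (OTD), 6.49 (YTD), 0.221 (OAD) and 0.316 (YAD).

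Of the ROR receptors, which activate Arntl through the element that the REV-ERB proteins repress, Rora was at 8.86 (OTD), 15.8 (YTD), 6.19 (OAD) and 5.30 (YAD) FPKM, so that OTD stood below YTD by 0.76 on the log2 scale, which was the widest age difference among the 19. Rorb was under the floor in every library. Arntl2, a relative of Arntl, was at 1.15 (OTD), 1.21 (YTD), 0.715 (OAD) and 0.496 (YAD) FPKM, and was lower in anagen where Arntl was higher.

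The other repressors were each lower in anagen as deposited, although Ciart and Bhlhe40 turned higher in young mice on a common sum. There the median gene of 1 FPKM or more shifted by 0.76. Cry2 was at 19.7 (OTD), 23.4 (YTD), 8.63 (OAD) and 7.97 (YAD) FPKM, called at both ages as deposited (-1.10 and -1.45) but not on a common sum (-0.53 and -0.67), whereas its relative Cry1 was not lower. Bhlhe41 (DEC2), which competes for E-boxes, was at 11, 12.5, 4.84 and 5.09 FPKM, also called at both ages as deposited only. Bhlhe40 (DEC1), at 44.6, 34.7, 23.8 and 27.0 FPKM, was short of the threshold at both. Ciart (CHRONO), a repressor of the Arntl pair, was at 8.87 FPKM in OTD but at 5.11, 4.90 and 4.96 FPKM in YTD, OAD and YAD, so that OTD alone stood apart.

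The kinases and ubiquitin ligase subunits that set the stability of Per and Cry proteins went both ways. Csnk1e was at 28.4 (OTD), 31.9 (YTD), 69.2 (OAD) and 60.5 (YAD) FPKM, and was called higher in old mice (1.26). Csnk1d was at 31.0, 34.9, 57.1 and 54.4 FPKM. On a common sum both kinases were called higher at both ages. The median gene of 1 FPKM or more then shifted by 0.58 in old and 0.76 in young mice. Btrc, which marks Per proteins for degradation, was at 4.0, 5.0, 1.46 and 1.76 FPKM and was called lower at both ages as deposited but at neither on a common sum. Fbxw11 was at 19.2, 26.9, 18.0 and 17.7 FPKM, and Fbxl21 at 0.286, 0.259, 0.248 and 0.153, neither of them called. The values of Fbxl21 correspond to only about 8.58 (OTD), 7.38 (YTD), 7.95 (OAD) and 4.69 (YAD) fragments.

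Among rhythmic outputs shared by many tissues, Usp2 and Nampt were called lower in anagen at both ages, with Usp2 at -0.92 and -0.94 and Nampt at -0.93 in young mice, short of the threshold, on a common sum. Usp2, a deubiquitinase, was at 48.0 (OTD), 64.2 (YTD), 16.1 (OAD) and 18.3 (YAD) FPKM. Nampt, an enzyme of NAD synthesis, was at 38.6, 44.4, 10.5 and 12.6 FPKM. Por, the electron donor of cytochrome P450 enzymes, was at 51.3, 42.6, 29.4 and 28.2 FPKM, and Wee1, a cell cycle kinase, at 7.75, 6.02, 4.58 and 5.93 FPKM, neither of them called.

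**Figure D5:**
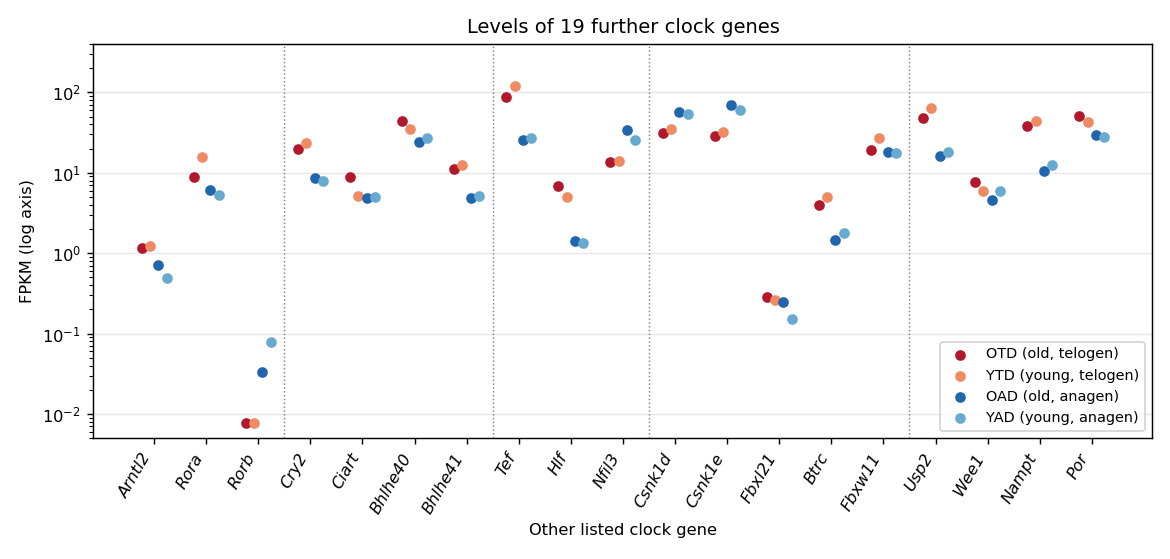
FPKM (log axis) of 19 further clock genes, 1 point per library and no error, with dotted lines between activators and ROR receptors, repressors, D-box factors, kinases and ubiquitin ligase subunits, and rhythmic outputs. Tef, Hlf, Cry2, Usp2 and Nampt are lower in both anagen libraries than in both telogen libraries, and Nfil3, Csnk1d and Csnk1e are higher.

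Markers of tissue make-up differed between phases as well. The 10 adipocyte markers were present in each library (none at 0), and their summed FPKM was 7853 (OTD), 6471 (YTD), 2725 (OAD) and 1897 (YAD). All 10 were lower in anagen, also on a common sum, with median log2 differences of -1.54 in old and -1.66 in young mice (-0.93 and -0.86 on a common sum). Skeletal muscle markers summed to 53311, 83543, 13129 and 9784 FPKM, with medians of -1.97 and -3.05 (-1.35 and -2.20 on a common sum). Macrophage (-2.01 and -1.28), endothelial (-2.05 and -1.78) and fibroblast markers (-2.88 and -1.12) had lower medians in anagen too. On a common sum these were -1.44 and -0.59 for macrophage, -1.47 and -0.97 for endothelial and -2.27 and -0.28 for fibroblast markers, with 1 of 6 fibroblast markers then higher in YAD than YTD. Single markers differed by more than Dbp, with the fibroblast marker Lum at -3.94 in old and the muscle marker Actn3 at -3.57 in young mice. Hair shaft markers, 7 of 8 found, summed to 23.0 and 69.3 FPKM in OTD and YTD. In OAD and YAD they summed to 9235 and 9159. All 8 epidermal keratinocyte markers were higher in anagen as well (medians 3.60 and 2.65), but unevenly. Past the threshold were 5 in old and 6 in young mice. Krt1 (0.11 and 0.08) and Krt10 (0.998 and 0.47) were short of it at both ages, whereas Ivl differed most (6.31 and 5.66). Which keratinocytes these markers came from was not tested. None of the muscle markers was at 0 in any library, and of the keratinocyte markers only Krt1 was, in YTD. Mitochondrially encoded genes took 52.7% of all FPKM for OTD, 44.7% for YTD, 18.3% for OAD and 14.4% for YAD. In bulk tissue fewer cells of a type and less RNA per cell cannot be told apart, and the part of this make-up in the clock gene levels was not tested. Glucocorticoid-induced genes, which also follow a daily rhythm, had medians of -0.84 in old and -1.07 in young mice between phases, with 8 of 8 and 6 of 8 lower, and of -0.25 and -0.28 on a common sum. Immediate early genes, known to respond to handling, differed most between the telogen libraries, where 13 of 13 were higher in OTD than YTD (12 of them past the threshold), with a median of 1.72. In anagen 12 of 13 were higher in OAD than YAD (2 past the threshold), with a median of 0.44 (0.21 on a common sum). The paper reported higher Egr1 in OTD by qRT-PCR in other mice and by immunofluorescence. The part of handling was not tested.

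By the distance between log2(FPKM + 1) profiles over the 4 libraries, each centred on its mean, the genes closest to Dbp outside the clock lists were Myog, Mustn1, Myl4, Rrad and Retnla, at distances of 0.29 to 0.39 among 10985 genes that reached 1 FPKM in every library. The closest, Myog, had an FPKM of 26.1 (OTD), 27.1 (YTD), 1.43 (OAD) and 1.26 (YAD). Closest to Arntl were Nbeal2, Plet1, Rexo2, Lgr4 and Erp29, at distances of 0.02 to 0.10. Nbeal2 had an FPKM of 2.55 (OTD), 3.54 (YTD), 10.04 (OAD) and 7.79 (YAD). With 4 libraries, so close a profile is a description of these samples only.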

How the data were processed

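RNA sequencing of dWAT gave 4 libraries, 1 per group (OTD, YTD, OAD and YAD). The authors deposited FPKM for 22913 genes with positions on GRCm38 and a feature length (97.0% are multiples of 3, so a coding length), and per the labels' processing notes bcl2fastq and TopHat2 were used. The counting tool, the scaling between libraries and strand-specific counting are not given in the sources used here. FPKM were used as deposited. Ensembl identifiers were matched to symbols for 21750 genes. Changes are differences of log2(FPKM + 1), called at 1 or more in size and set beside the share of the 18152 genes with a value above 0 that were called. With 1 library per group no test was run. Depth was estimated from the lowest FPKM times length of features of 2000 to 4000 bases, and the floor of 3 fragments covers counting error only. The genes named are the 10 members, 19 other listed clock genes, and the 5 genes closest in profile to Dbp and to Arntl. Marker lists are given as counts, sums and medians, with a few single markers named. The members and lists were chosen with earlier results of these data known. Y-linked genes were used as a check between libraries, with 4 of 4 lower in OAD than YAD (median -0.66) and a median of -0.01 in OTD against YTD. Between phases 4 of 4 were lower in OAD than OTD (median -0.93, 2 past the threshold). In YAD against YTD 2 of 4 were lower (median -0.07). On a common sum these 2 medians were -0.42 and 0.68. Krt85 and Xist were not analysed here, and 2 genes of the clock lists are not reported here and are left out of the counts. Motifs were searched in RefSeq promoter windows on GRCm38.p6, and overlaps of the printed bases with transcripts were read from GENCODE. The alternatives were other pseudocounts, a filter on low FPKM, rescalings, a threshold of 1.5 and other definitions of the limbs. Only the log2 differences and the threshold were tested on simulated data, with large changes placed in well expressed genes. The limbs, ratios, profile distances, motif search and rescalings were not tested in this way. Python 3.11.15, numpy 2.4.6, pandas 2.3.3, scipy 1.17.1 and matplotlib 3.10.9 were used.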

Additional observations from a re-analysis of the deposited data

Results flagged for a closer look

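Arntl, the activator of the loop, and Wee1, a cell cycle kinase listed as a rhythmic output, differed between ages in opposite directions in the 2 hair cycle phases, each by at least 0.25 on the log2(FPKM + 1) scale. Arntl was lower in OTD than YTD (-0.36) and higher in OAD than YAD (0.34). The telogen difference of Arntl rests on roughly 46.9 (OTD) and 68.1 (YTD) fragments. The anagen difference of Arntl kept its sign but was under 0.25 in 3 of 4 rescalings, at 0.16 on a common sum, 0.22 with mitochondrially encoded genes left out and 0.22 with skeletal muscle markers left out as well. Wee1 was higher in OTD than YTD (0.32) and lower in OAD than YAD (-0.31), and stayed past 0.25 in both phases in all 4 rescalings. With 1 library per group neither difference between phases was tested.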

How the results depend on the processing

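Dbp, Nr1d1, Nr1d2, Per3 and Arntl kept their direction between phases under all 6 alternatives of pseudocount and scaling, at both ages. Dbp ranged from -3.61 to -2.70 in old and from -3.48 to -2.53 in young mice. Of 240 values of single members under alternatives, 190 moved by less than their counting interval (exact binomial, from rough fragments) and 50 by more, and 182 and 38 of these kept their sign. With a pseudocount of 0.01 the number of members called in telogen between ages became 1 (Npas2), on few fragments. The number called between phases ranged from 4 to 6 in old and from 3 to 6 in young mice. The excess of the negative over the positive limb was 4.10 (OTD), 3.99 (YTD), 2.01 (OAD) and 2.35 (YAD) with a pseudocount of 0.1, and 4.38, 4.45, 2.15 and 2.57 with 0.01, where OTD no longer exceeded YTD. With only Nr1d1 and Nr1d2 against Arntl and Npas2 it was 4.76 in OTD and 4.39 in YTD. Dbp minus Arntl gave 5.29, 5.05, 0.38 and 0.79. Leaving out Npas2, chosen after seeing the data, gave 2.55, 2.25, 0.73 and 0.91. Both telogen libraries stayed above both anagen libraries under each of these. The share of all genes called was 11.8% and 19.0% in telogen and 6.11% and 13.4% in anagen between ages with pseudocounts of 0.1 and 0.01, and 53.0% and 53.8% between phases in old and young mice with 0.01. With a threshold of 1.5 the 4 shares were 0.777%, 0.320%, 17.5% and 18.1%. Rescaled to a common sum, the median gene of 1 FPKM or more shifted by 0.58 between phases in old and 0.76 in young mice and by -0.21 between ages in anagen. The split of called genes was then 4923 higher and 1502 lower in old mice, 5891 and 1274 in young mice, and 104 and 175 between ages in anagen, beside 2854 and 2759, 2829 and 2938, and 128 and 80 as deposited. Relative to that shift Dbp was at -3.28 and -3.29 and Per3 at -1.11 and -1.12 in old and young mice. The causes of these moves, other than the altered constants, were not tested. No paired analysis was possible because each group is 1 library. Depth limits Npas2, Rorb and Fbxl21 most, and Arntl in telogen rests on roughly 46.9 (OTD) and 68.1 (YTD) fragments.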
